A study of Mus musculus with 10 samples.

Results

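The 9 genes described here were chosen by name from the 54446 genes of the deposited table and all 9 were found in it. They are the endothelial receptors Vcam1, Icam1, Sele (E-selectin) and Selp (P-selectin), the endothelial genes Plvap, Pecam1 and Cdh5, and the leukocyte partners Selplg (PSGL-1) and Itga4 (alpha-4 integrin). RNA of whole esophagus was measured in 10 libraries of wild-type (WT) C57BL/6 mice. In 5 libraries (A1 to A5) the mice had received vehicle, and in the other 5 (C1 and D1 to D4) they had received the hapten oxazolone (OXA) in a model of eosinophilic esophagitis. The sources used here give neither dose, route and time nor age and sex. Vehicle libraries carry the letter A and OXA libraries C or D, and if the letter marks a batch, it cannot be told apart from treatment. The labels do not say how samples relate to animals, so each p-value measures only how these samples spread, which may in part be technical.

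Leukocytes leave the blood in steps. Selectins on activated endothelium catch passing cells by their ligand PSGL-1, and integrins on the leukocyte then bind immunoglobulin-family receptors on the vessel wall and hold the cell firmly before it crosses. Inflammatory cytokines raise several of the endothelial receptors, in part through the transcription factor NF-kB. In eosinophilic esophagitis, an allergic disease in which eosinophils enter the esophageal epithelium, the contact between the integrin chain alpha-4 and VCAM-1 is a known route for eosinophils out of vessels.

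Depth ran from 3675479 reads (D2) to 12108822 reads (A4). Values are normalized counts, meaning gene counts divided by 1 size factor per library, and 3 reads in a library were worth between 1.56 (A4) and 5.43 (D2) on that scale. Because they come from the 3' ends of transcripts, levels are compared between groups and never between genes. Of the 9 genes, 8 passed the filter of a mean of at least 5 and were tested with limma on log2(value + 1) among 14712 genes in all. Sele did not pass it. Of all 14712 genes, 29.9% were called at an adjusted p under 0.05, 15.7% higher and 14.2% lower in OXA. The groups did not overlap, with OXA above vehicle, for 12% of genes. Among the 9, Vcam1, Selplg, Plvap and Itga4 were called higher, none was called lower, and for Vcam1, Selplg and Itga4 every OXA library lay above every vehicle library. Whole tissue cannot tell more cells of a type apart from more RNA per cell, and this holds for each difference below.

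**Figure D1:**
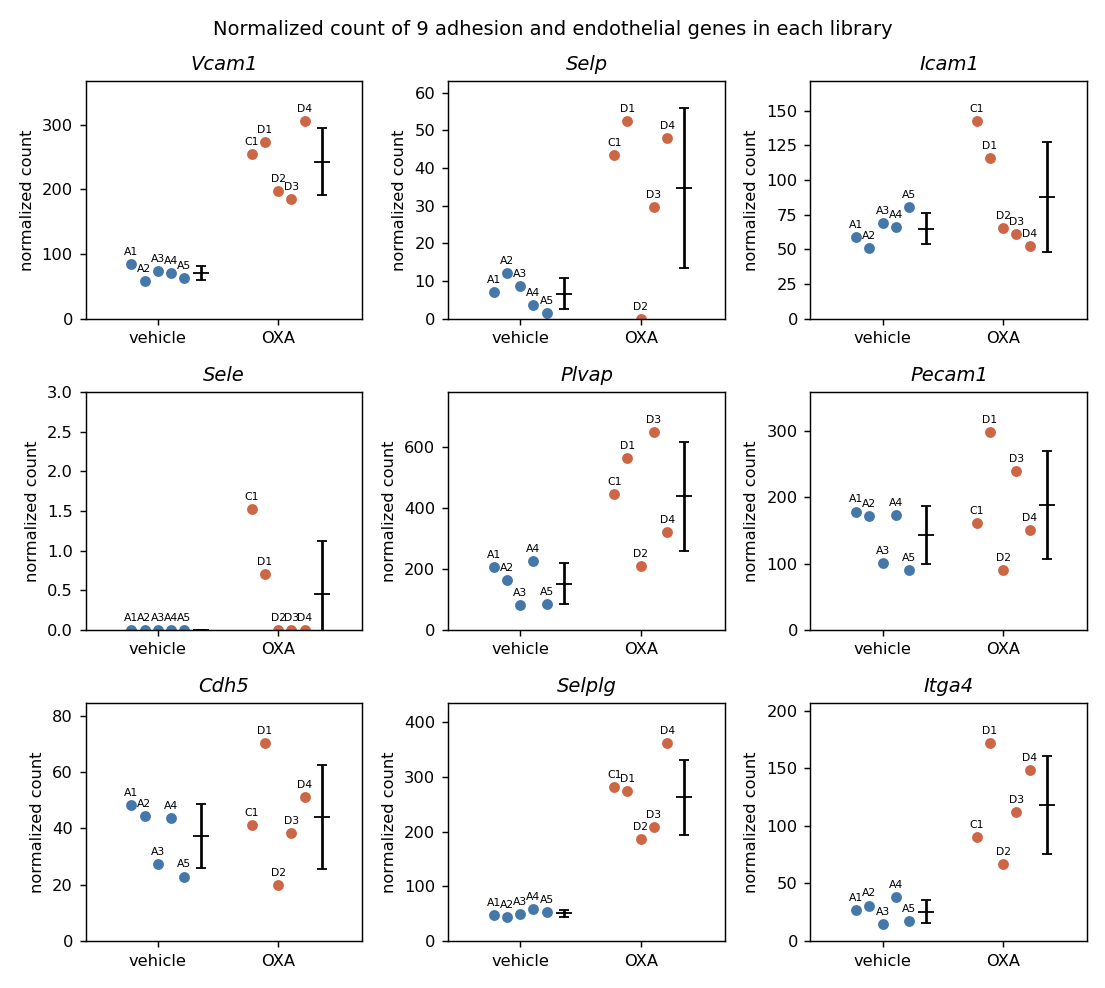
Normalized count (vertical axes, linear, each starting at 0) of the 9 genes in 5 vehicle (blue) and 5 OXA (orange) libraries, each point named by its library; black bars are the mean and SD. Vcam1, Selplg and Itga4 separate the groups, D2 stands at 0 for Selp, and A3, A5 and D2 are the lowest libraries of their groups for Pecam1 and Cdh5.

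Pecam1 and Cdh5 were measured first, as markers of how much endothelial RNA each library held. Pecam1 encodes CD31, a homophilic adhesion protein of endothelial junctions that platelets and many leukocytes also carry (ENSMUSG00000020717.19, chromosome 11, 106653917 to 106750628 on GRCm38, minus strand). It stood at 179, 172, 101, 174 and 90.2 normalized counts in A1 to A5, and at 162, 299, 90.5, 239 and 150.1 in C1 and D1 to D4. The groups overlapped over most of their range, with only D1 and D3 above all vehicle libraries. The log2 difference, OXA minus vehicle, was 0.34 ± 0.30 (SE), with a 95% interval from -0.31 to 0.98 (limma adjusted p = 0.428).

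Cdh5 encodes VE-cadherin, the cadherin of endothelial adherens junctions (ENSMUSG00000031871.9, chromosome 8, 104101625 to 104144811, plus strand). Its levels were 48.3, 44.3, 27.3, 43.6 and 22.9 in vehicle and 41.2, 70.4, 19.9, 38.3 and 51.1 in OXA. The lowest and the highest of the 10 libraries were both OXA libraries, and the groups overlapped. The log2 difference was 0.19 ± 0.33, with an interval from -0.52 to 0.89 (limma adjusted p = 0.700). Both intervals include 0 and both reach upward to at least 0.89, so the data do not show that endothelial RNA was equal in the groups.

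The pair rose and fell together from library to library. Their geometric mean level was 94.1, 88.4, 53.8, 88.4 and 46.7 in A1 to A5, and 82.9, 146, 43.7, 97.2 and 88.7 in C1 and D1 to D4. The libraries A3 and A5 in vehicle and D2 in OXA were thus at about the same low level. The summed level of 30 pan-endothelial marker genes set the same 3 libraries apart, at 1325, 1225 and 1285, against 1887 to 2062 in the other vehicle libraries and 1799 to 3212 in the other OXA libraries. A5 and D2 were also the shallowest library of their group, but A3, with 7351691 reads, was not. The same 3 libraries had the highest summed level of epithelial markers in their groups, 828964 (A3) and 1007151 (A5) against 592666 to 648671 in the other vehicle libraries, and 552223 (D2) against 228429 to 376738 in the other OXA libraries. The part of depth and of tissue makeup in the endothelial levels was not tested.

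Of the 29 pan-endothelial markers tested, 4 were higher in OXA, 1 was lower and 24 did not pass, with a median log2 difference of 0.29 against -0.011 over all genes. Among all genes 15.7% were called higher and 14.2% lower. Those that rose included Cd93, a lectin-like receptor of angiogenic vessels (78.7 ± 30.8 to 254 ± 109, mean ± SD, n = 5; 1.63 ± 0.37, limma adjusted p = 0.00453), and Clec14a, which is related to it (19.7 ± 10.2 to 59.0 ± 24.6; 1.60 ± 0.42, adjusted p = 0.0105). The transcription factor Tal1 rose by 1.46 ± 0.49 (adjusted p = 0.0368) but did not pass in 10 of 23 alternatives, including when A1, A3, C1, D1, D2 or D4 was left out. Sox7, another endothelial transcription factor, was lower (log2 difference -0.99 ± 0.26, adjusted p = 0.0116), and did not pass without A3, A5 and D2 together (adjusted p = 0.0690). No gene of the lymphatic list passed among 5 tested, which included the hyaluronan receptor Lyve1 (653 ± 171 and 800 ± 212) and the chemokine Ccl21a (296 ± 88.9 and 481 ± 288), and Mmrn1 of that list was at 0 throughout. The lymphatic sum was highest in D2 (1944), the OXA library lowest for pan-endothelial markers.

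Among the receptors of the vessel wall, Vcam1 had the clearest difference. VCAM-1 is the counter-receptor of alpha-4 integrins, and fibroblasts and macrophages can carry it besides endothelium (ENSMUSG00000027962.14, chromosome 3, 116109649 to 116129688, minus strand). Its normalized counts were 85.3, 58.5, 74.1, 71.2 and 63.0 in vehicle, and 254, 273, 197, 185 and 307 (306.5) in OXA. The lowest OXA library, D3, lay far above the highest vehicle library, A1. The means were 70.4 ± 10.4 and 243 ± 51.3 (SD, n = 5 each), a log2 difference of 1.76 ± 0.18 (limma adjusted p = 1.07e-05), or 3.39-fold with an interval from 2.60 to 4.41. The exact two-sided permutation p was 0.00794, the smallest this test can give with 5 against 5 libraries.

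Selp encodes the selectin that endothelial cells and platelets store in granules and bring to their surface when stimulated (ENSMUSG00000026580.16, chromosome 1, 164115264 to 164150326, plus strand). Its normalized counts were 7.19, 12.0, 8.77, 3.64 and 1.43 in vehicle and 43.5, 52.6, 0, 29.7 and 47.9 in OXA. C1, D1, D3 and D4 lay above every vehicle library, and D2 had no Selp read, which in that library allows up to 5.43. Over all 10 libraries the log2 difference was 1.65 ± 0.94 and did not pass (limma adjusted p = 0.204; exact permutation p = 0.206). Without D2 it was 2.74 (adjusted p = 7.86e-04). It also passed with all libraries on the recovered reads, at 2.38 in edgeR (adjusted p = 0.0131) and 2.39 in DESeq2 (adjusted p = 0.00171). D2 was the shallowest library and had low Pecam1 and Cdh5. It held 109 reads of Vcam1 and 103 of Selplg. Why it had no Selp read was not tested.

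Platelet genes were looked at because Selp is also a platelet gene. Of 10 listed, 5 were tested and 1 rose, against 15.7% of all genes. It was Itga2b (0.49 ± 0.16, adjusted p = 0.0330), which did not pass in 9 of 23 alternatives, including when A2, A3, A4, A5, D1, D3 or D4 was left out. The summed level of the list was 450 to 831 in vehicle and 653 to 1742 in OXA, and 673.5 in D2. Pf4, a defining granule chemokine of platelets, stood at 343 ± 64.1 and 393 ± 115 (chosen after its values were seen). Their part in the Selp values was not tested.

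Icam1 encodes the ligand of the beta-2 integrins and is made by endothelium, epithelium and leukocytes (ENSMUSG00000037405.8, chromosome 9, 21015985 to 21029117, plus strand). In vehicle it stood at 58.6, 51.0, 69.2, 66.0 and 80.1 normalized counts and in OXA at 143, 116, 65.2, 61.3 and 52.7. C1 and D1 were above all vehicle libraries, while D2, D3 and D4 lay within the vehicle range. The log2 difference was 0.33 ± 0.27 (limma adjusted p = 0.381; exact permutation p = 0.333), or 1.26-fold with an interval from 0.842 to 1.88. The 3.39-fold rise seen for Vcam1 lies outside that interval. Without the 3 shallowest libraries (A5, D2 and D4) the difference was 0.72 and did not pass either (adjusted p = 0.0689).

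Sele, the selectin that endothelium makes mainly after cytokine stimulation (ENSMUSG00000026582.6, chromosome 1, 164048234 to 164057977, plus strand), was close to undetected. It had 0 reads in all 5 vehicle libraries and in D2, D3 and D4, 2 reads in C1 and 1 read in D1, which are 1.53 and 0.71 normalized counts. Those values lie under the level of 3 reads in the same libraries (2.29 and 2.13), so no difference was detectable at this depth (exact permutation p = 0.444).

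The start regions of Selp, Icam1 and Sele are shown because these are the 3 selectin and ICAM genes of the vessel wall for which the RefSeq promoter table (GRCm38.p6) held an entry, and because NF-kB genes were among those higher in OXA (below). Each is the 250 bases before the RefSeq gene start on the plus strand, at chr1:164115014-164115263 for Selp, chr9:21015690-21015939 for Icam1 and chr1:164047984-164048233 for Sele. Capitals mark matches on either strand to either of 2 forms of the NF-kB site, a broad form (GGG and CC with any 5 bases between them) and a narrow form, GGANNTTCC, where N is any base.
Selp: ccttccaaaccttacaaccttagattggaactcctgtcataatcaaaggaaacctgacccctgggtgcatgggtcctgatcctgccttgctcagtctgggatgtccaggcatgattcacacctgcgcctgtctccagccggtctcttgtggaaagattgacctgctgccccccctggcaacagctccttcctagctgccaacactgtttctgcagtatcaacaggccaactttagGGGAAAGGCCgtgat
Icam1: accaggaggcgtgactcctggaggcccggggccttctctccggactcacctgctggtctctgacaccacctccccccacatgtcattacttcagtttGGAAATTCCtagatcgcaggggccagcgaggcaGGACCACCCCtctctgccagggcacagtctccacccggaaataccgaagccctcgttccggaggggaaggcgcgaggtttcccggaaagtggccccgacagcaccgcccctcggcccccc
Sele: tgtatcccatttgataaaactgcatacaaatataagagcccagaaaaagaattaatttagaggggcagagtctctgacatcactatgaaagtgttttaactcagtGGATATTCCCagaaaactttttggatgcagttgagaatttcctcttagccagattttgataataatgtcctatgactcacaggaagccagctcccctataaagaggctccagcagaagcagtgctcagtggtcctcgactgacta

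In the Sele region the match ran from 145 to 136 bases before the start and held both forms, which overlapped. Icam1 had the narrow form from 153 to 145 bases before the start and the broad form from 120 to 111, and Selp had the broad form from 15 to 6 bases before it. The broad form is common, with a match in 50.8% of 32851 promoter windows that run from 250 bases before to 50 after a gene start, and the narrow form was in 4.26%. A match is a stretch of letters and was not tested as a site. TTCNNNGAA, a form of the STAT site, was found in Sele and Icam1 and in 8.30% of all windows. In these windows of the 3 genes no match was found to the wider STAT6 form, TTC and GAA with 4 bases between them (6.95% of windows), to an IRF form, GAAA repeated with 2 bases between (3.44%), or to the ETS form CCGGAAG (8.86%). Itga4, the fourth of the 9 genes with an entry, had no match to any of the 6 forms. Vcam1, Selplg, Plvap, Pecam1 and Cdh5 had no entry.

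Plvap, which is no adhesion receptor for leukocytes but forms the diaphragms of fenestrae and caveolae in endothelial cells, also rose (ENSMUSG00000034845.6, chromosome 8, 71497465 to 71511752, minus strand). Its normalized counts were 207, 163, 79.9, 225 and 84.4 in vehicle and 447, 567, 208, 651 and 321 in OXA. The groups overlapped at 1 point, since D2 lay below A4. The log2 difference was 1.54 ± 0.35 (limma adjusted p = 0.00419; exact permutation p = 0.0159), or 2.91-fold with an interval from 1.74 to 4.87. The libraries lowest for Plvap within their groups, A3, A5 and D2, were those lowest for Pecam1 and Cdh5.

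Among the leukocyte partners, Selplg encodes PSGL-1, the mucin that selectins bind (ENSMUSG00000048163.13, chromosome 5, 113818236 to 113832644, minus strand). Its normalized counts were 47.3, 43.5, 49.7, 58.7 and 52.9 in vehicle and 282, 274, 186, 208 and 362 in OXA. The vehicle libraries lay within a narrow range and all OXA libraries were far above it. The log2 difference of 2.33 ± 0.19 (limma adjusted p = 1.60e-06; exact permutation p = 0.00794) was 5.01-fold, with an interval from 3.78 to 6.65.

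Itga4 encodes the alpha-4 chain that pairs with Itgb1 or Itgb7 and binds VCAM-1 (ENSMUSG00000027009.18, chromosome 2, 79255426 to 79333423, plus strand). Its normalized counts were 26.7, 30.8, 14.6, 38.4 and 17.2 in vehicle and 90.1, 172, 67.0, 112 and 148 in OXA, so that no OXA library reached down to the vehicle range. A3, A5 and D2 were its lowest libraries within their groups, as for Pecam1, Cdh5 and Plvap. The log2 difference was 2.17 ± 0.31 (limma adjusted p = 1.66e-04; exact permutation p = 0.00794), or 4.50-fold with an interval from 2.83 to 7.13. Both partner chains, named after their values were seen, were higher too, Itgb7 at 13.2 ± 6.53 and 46.5 ± 12.995 (1.82 ± 0.35, adjusted p = 0.00157) and Itgb1, which most cells express, at 834 ± 67.4 and 1284 ± 225 (0.61 ± 0.14, adjusted p = 0.00458).

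**Figure D2:**
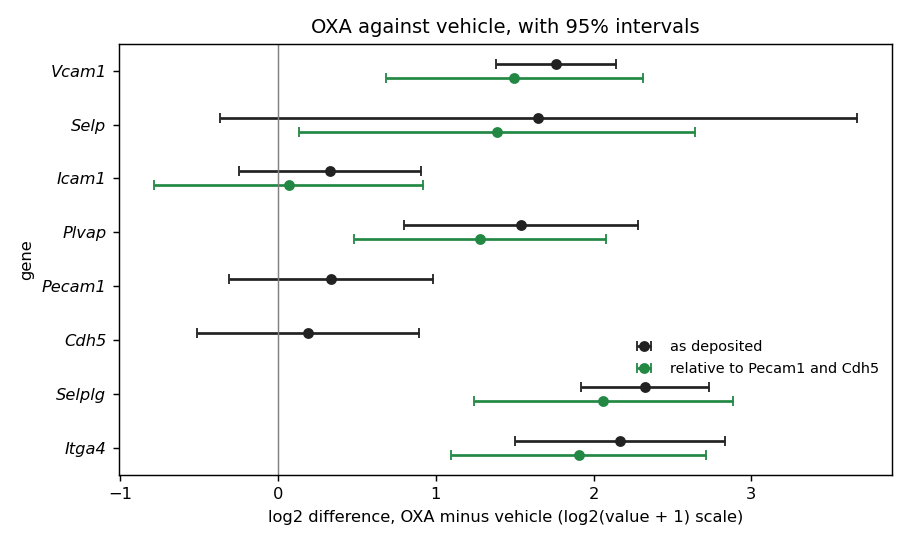
Log2 difference, OXA minus vehicle (horizontal axis), of the 8 tested genes (vertical axis) on the deposited values (black) and relative to Pecam1 and Cdh5 (green); points are limma estimates and bars are 95% intervals not adjusted for the number of genes. Vcam1, Plvap, Selplg and Itga4 lie above 0 on both scales; the relative interval of Selp also lies above 0, but its adjusted p was 0.156 and its exact p 0.190.

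To ask whether the receptors differed beyond the endothelial markers of the same library, the mean of log2(value + 1) of Pecam1 and Cdh5 was subtracted from every gene in that library and the fit was repeated. On this scale the median of all genes moved to -0.27, and 4.89% of 14710 genes were called higher and 7.17% lower. The groups did not overlap, with OXA above, for 2.92% of genes. Vcam1, Plvap, Selplg and Itga4 were called higher, and for these 4 all OXA libraries were above all vehicle libraries. In the pan-endothelial list 2 genes were called higher and 1 lower on this scale.

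The ratios below are (value + 1) over the geometric mean of the same for Pecam1 and Cdh5. Vcam1 stood at 0.917, 0.673, 1.40, 0.816 and 1.37 times that mean in vehicle and at 3.08, 1.87, 4.53, 1.91 and 3.47 times in OXA. Its log2 difference was 1.498 ± 0.41 (limma adjusted p = 0.00822; exact permutation p = 0.00794). Plvap stood at 2.22, 1.85, 1.504, 2.56 and 1.83 in vehicle and 5.41, 3.88, 4.78, 6.71 and 3.63 in OXA. Here D2, which overlapped vehicle on the deposited scale, was inside the range of the other OXA libraries. The log2 difference of Plvap was 1.28 ± 0.40 (adjusted p = 0.0238; exact permutation p = 0.00794). It did not pass without A2, A3, C1 or D3 (adjusted p = 0.0649, 0.0853, 0.0814 and 0.103).

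Selp relative to the pair was 0.0870, 0.147, 0.182, 0.0525 and 0.0521 in vehicle and 0.537, 0.366, 0.0229, 0.316 and 0.551 in OXA. The D2 value rests on the added 1 alone, as it had no read, and the other 4 OXA libraries were above all vehicle libraries. The log2 difference was 1.39 ± 0.63 (limma adjusted p = 0.156; exact permutation p = 0.190), and 2.24 without D2 (adjusted p = 4.76e-04). On the leukocyte side, Selplg went from ratios of 0.503 to 1.16 in vehicle to 1.88 to 4.29 in OXA, a log2 difference of 2.06 ± 0.41 (adjusted p = 2.02e-04; exact permutation p = 0.00794). Itga4 went from 0.290 to 0.446 in vehicle to 1.098 to 1.69 in OXA, a difference of 1.91 ± 0.40 (adjusted p = 5.35e-04; exact permutation p = 0.00794). Icam1 ranged from 0.588 to 1.74 in vehicle and from 0.605 to 1.73 in OXA, with a log2 difference of 0.07 ± 0.43 (adjusted p = 0.946). The interval ran from -0.78 to 0.92, and the sign turned when A1, A2, C1 or D2 was left out.

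**Figure D3:**
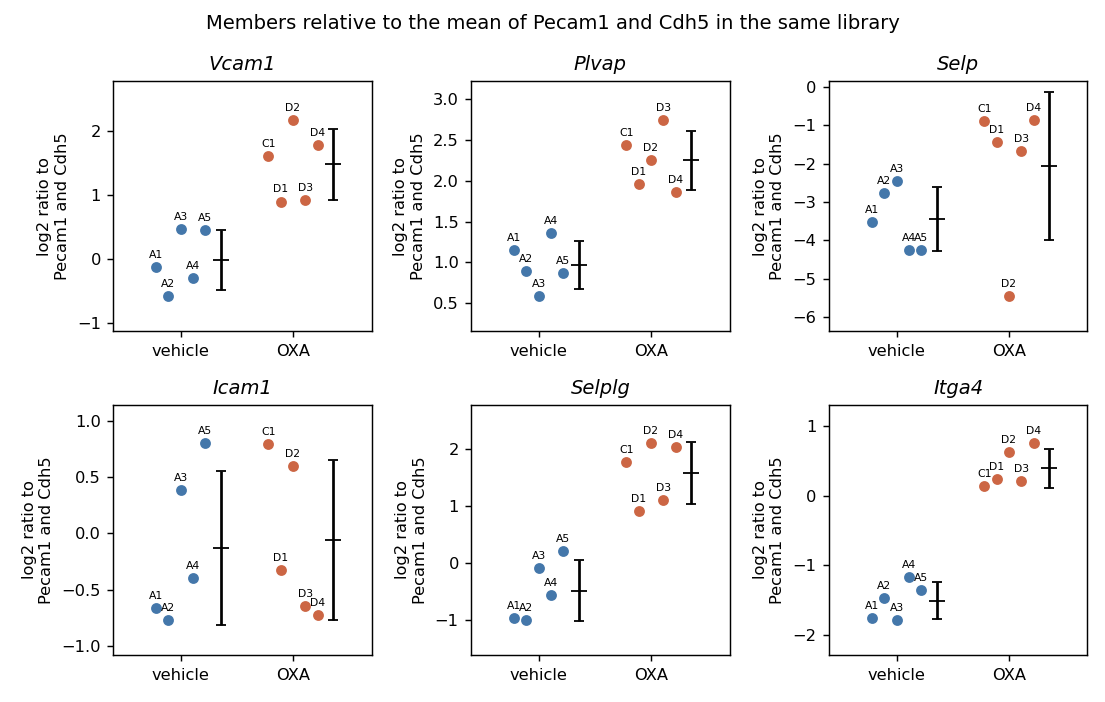
Log2 of each gene's value relative to the mean of Pecam1 and Cdh5 in the same library (vertical axes, each with its own range) in 5 vehicle (blue) and 5 OXA (orange) libraries; black bars are the mean and SD of the log2 ratios. The groups separate for Vcam1, Plvap, Selplg and Itga4, overlap for Icam1, and are separated for Selp except by D2.

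Selplg and Itga4 are leukocyte genes for the most part, so they were also set against Ptprc (CD45), which all leukocytes carry. Ptprc itself, a listed gene named after its values were seen, went from 82.1 ± 29.4 to 481 ± 136 normalized counts (2.59 ± 0.28, limma adjusted p = 1.96e-05). With log2(value + 1) of Ptprc subtracted in each library, 93.9% of 14711 genes were lower and 0.489% higher in OXA. Selplg differed by -0.26 ± 0.42 (adjusted p = 0.539; exact permutation p = 0.563) and Itga4 by -0.42 ± 0.44 (adjusted p = 0.355; exact permutation p = 0.270). The intervals, from -1.08 to 0.56 for Selplg and from -1.29 to 0.45 for Itga4 include 0 and also differences beyond -1 on the log2 scale. Against the mean of 16 leukocyte markers both differences were positive, 0.35 for Selplg (adjusted p = 0.101) and 0.20 for Itga4 (adjusted p = 0.553).

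The 16 leukocyte markers were all called higher, with a median log2 difference of 2.12 and a summed level of 1324 to 1734 in vehicle and 4179 to 6748 in OXA. They were led by the lysosomal protein Laptm5 (2.70 ± 0.20), the actin regulator Coro1a (2.32 ± 0.18), the surface glycoprotein Cd52 (2.67 ± 0.22) and the actin bundler Lcp1 (2.14 ± 0.19). Of 10 macrophage markers 8 rose, with C1qb, a complement subunit that tissue macrophages make, at 1.37 ± 0.22 and the mannose receptor Mrc1 at 1.35 ± 0.22. Among 9 eosinophil genes 2 were tested and 1 rose, Ear6 (37.2 ± 7.88 to 228 ± 178), one of a family of closely similar ribonuclease genes between which reads can be split. The summed level of the eosinophil list was 39.0 to 58.5 in vehicle and 108 to 628 in OXA, and D2 had the most. Its means were 46.6 and 277, most of which was Ear6, so the sum is no separate measure. The defining eosinophil granule gene Epx averaged 0.306 in OXA and was 0 in vehicle, and Prg3 was at 0 throughout. In fibroblasts, the other tissue cells that can carry Vcam1, 2 of 10 markers rose and 1 fell (median 0.22), with summed levels of 24317 to 35699 and 27759 to 49193. Beside the counts of these lists, 15.7% of all genes were called higher and 14.2% lower. The part of these cell types in the Vcam1 and Itga4 values was not tested.

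In the wider adhesion cascade, a list of 52 genes that contains the 9, 19 of the 42 tested rose, 3 fell and the other 20 did not pass. Without the 9 genes, 15 of 34 rose and 3 fell, with a median of 0.66, against 15.7% higher and 14.2% lower over all genes. Relative to Pecam1 and Cdh5, 11 genes of the whole list were higher and 1 lower, against 4.89% and 7.17% of all genes. The 11 include Vcam1, Plvap, Selplg and Itga4. A gene near 0 in vehicle passes the filter only where OXA is high, which partly sets these counts. Leukocyte integrins of the beta-2 family were among those that rose, led by Itgal, the alpha chain of LFA-1, at 3.75 ± 1.74 and 49.5 ± 12.0 (3.50 ± 0.38, limma adjusted p = 2.09e-05). Genes named after their values were seen included its partner Itgb2 (1.85 ± 0.22), Itgam (1.183 ± 0.19) and St3gal4, a sialyltransferase that helps to build selectin ligands (1.42 ± 0.29). The groups did not overlap for any of these 4 genes, nor, with OXA above, for 12% of all genes. As the 4 were named for a small p or after their values were seen, this is no separate support. Itgal, with a vehicle mean under 5, passed the filter only through its OXA values. Sirpa, the receptor of CD47 on myeloid cells, rose by 1.51 ± 0.16, and Alcam, an adhesion protein of epithelium and leukocytes named after its values were seen, fell from 158 ± 25.4 to 58.2 ± 8.46 (-1.43 ± 0.17, adjusted p = 4.02e-05). Madcam1, the mucosal ligand of the alpha-4 beta-7 integrin, averaged 0 in vehicle and 0.152 in OXA, under the level of 3 reads.

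Of 17 tested genes of venular or activated endothelium 5 rose and 2 fell (median 0.35), against 15.7% and 14.2% of all genes. Relative to Pecam1 and Cdh5, 1 was called higher and 2 lower, against 4.89% and 7.17% of all genes. Ackr1, the atypical chemokine receptor that marks venules, went from 58.1 ± 12.3 to 194 ± 72.7 (1.63 ± 0.30, limma adjusted p = 0.00121). The groups only just did not overlap, with the highest vehicle library at 72.2 and the lowest OXA library at 72.4. Every OXA library lay above vehicle for 12% of all genes, and Ackr1 was named for its small p. Thrombomodulin (Thbd), an anticoagulant receptor that epithelium makes too, rose by 0.74 ± 0.18 (adjusted p = 0.00740). The costimulatory ligand Icosl (-1.31 ± 0.27, adjusted p = 0.00225) and tissue factor (F3, -1.74 ± 0.20) were lower. Csf3 was at 0 throughout.

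Cytokines that induce these receptors, and their receptors, made up a list of 23 genes, of which 16 were tested, 11 rose and 1 fell (median 0.75). Relative to Pecam1 and Cdh5, 4 were higher and 1 lower. Tnfrsf1b, the second TNF receptor, went from 34.6 ± 11.8 to 161 ± 48.1 (2.19 ± 0.25, limma adjusted p = 2.56e-05). Ltb, a TNF-family cytokine of lymphocytes, rose by 3.13 ± 0.33, Il4ra, the receptor chain shared by IL-4 and IL-13, by 1.69 ± 0.20, and the IL-33 receptor Il1rl1 by 1.44 ± 0.24. Tnf itself averaged 0.300 and 1.86 and was not tested. In the list of NF-kB pathway and feedback genes all 22 were tested, and 13 rose and none fell (median 0.64). Relative to Pecam1 and Cdh5, 2 were higher and none lower. The shares over all genes were 15.7% higher and 14.2% lower, and 4.89% and 7.17% on the relative scale. Nfkb1 and Nfkb2, which encode NF-kB subunits, rose by 0.98 ± 0.12 and 1.29 ± 0.14, the inhibitor of apoptosis Birc3 by 1.38 ± 0.17 and the interferon-regulated factor Irf1 by 2.19 ± 0.27. Traf1, an adaptor of TNF receptors named after its values were seen, went from 4.99 ± 3.58 to 37.5 ± 14.3. None of these 5 genes had an OXA library within the vehicle range, and for 12% of all genes every OXA library lay above vehicle. They were named for their small p or, for Traf1, after its values were seen, so this is no separate support. Traf1, with a vehicle mean under 5, passed the filter only through its OXA values.

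**Figure D4:**
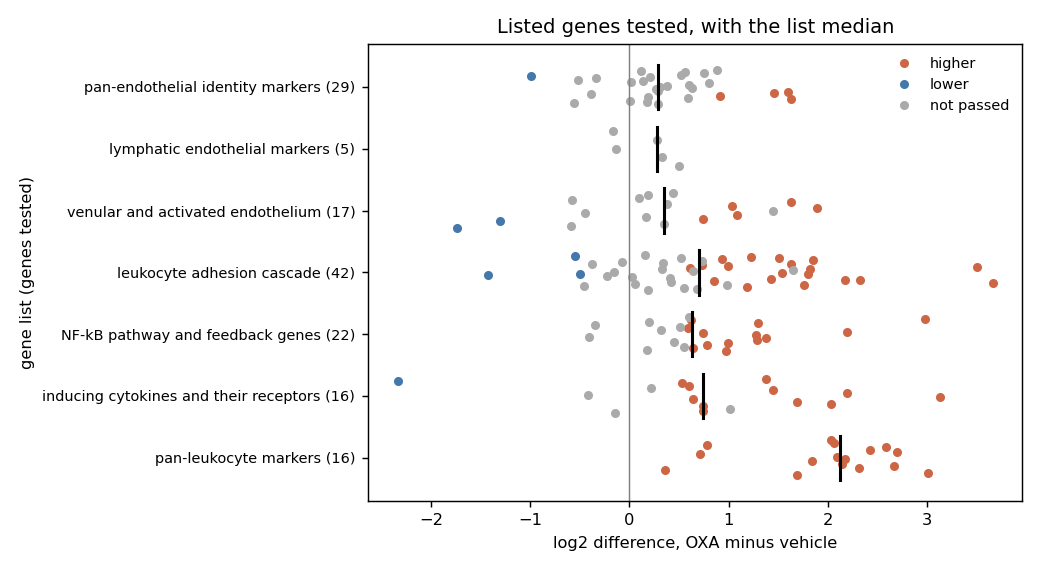
Log2 difference, OXA minus vehicle (horizontal axis), of each tested gene of 7 lists (vertical axis, with the number tested); points are orange where called higher, blue where called lower and grey where not passed, and black lines are list medians. The pan-endothelial and venular lists have medians of 0.29 and 0.35, against 2.12 for the leukocyte markers.

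Markers of the other cell types of the tissue were mostly not called, as was so for all tested genes. Of those, 15.7% were called higher and 14.2% lower. Of 13 pericyte and vascular muscle markers none rose and 3 fell, Tagln, Cnn1 and Kcnj8 (median -0.34), with summed levels of 17586 to 30402 in vehicle and 11538 to 25277 in OXA. Epithelial markers rose in 2 and fell in 2 of 10 (median -0.19), and 1 of those called, Krt4, did not pass in 10 alternatives. The summed level of these markers was lower in every OXA library (228429 to 552223) than in any vehicle library (592666 to 1007151). Such a sum mostly follows the genes with the highest counts, and the part of each gene in it was not tested. Skeletal muscle markers fell in 3 of 10 (median -0.66), among them Myh4, which did not pass in 9 alternatives, and Tnni2, which did not pass in 14. The muscle sum was 115669 to 145812 in vehicle and 56168 to 202852 in OXA, highest in D1, the library that was also highest for Pecam1 and Cdh5. Its part in those values was not tested.

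Within the groups, the likeness of other genes to Pecam1, Vcam1 and Selplg was measured as Pearson's r of log2(value + 1) over the 10 libraries after the group means were removed, over 11870 other genes with a mean of at least 20. These are descriptions, since all genes share each library's size factor and depth. Those most like Pecam1 included Pias2 (r = 0.985), Gm20300 (0.975), 5730419F03Rik (0.971) and Filip1 (0.971). For 26 pan-endothelial markers the median r with Pecam1 was 0.69, from -0.76 to 0.96, against -0.071 for all genes. With Vcam1 the same markers had a median of 0.071 and with Selplg of 0.15. Itga4, though mainly a leukocyte gene, had r = 0.89 with Cdh5, 0.82 with Pecam1 and 0.77 with Plvap, and 0.46 with Selplg. Selplg had r = 0.13 with Pecam1 and 0.48 with Cdh5. The part of endothelial content in the Itga4 values was not tested. Most like Vcam1 were Tmem229b (0.964), Rnf20 (0.909), the leukocyte marker Lcp1 (0.905), Pex19 (0.903) and Cd38 (0.900), and most like Selplg were Prps1 (0.961), Nup188 (0.960), Cacnb3 (0.949), Edc4 (0.947) and Wdr33 (0.941).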

How the data were processed

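Libraries were made by CEL-Seq, which counts 3' ends, with sequencing by HiSeq 2500, per the labels' protocols. The build GRCm38 and HTSeq 0.11.2, TopHat2 2.1.0, DESeq2 1.18.1, Bowtie2 2.2.6, FastQC 0.11.5, cutadapt 1.10 and Trim Galore are named without roles, per the submitters' processing notes. The deposited signal is each gene's read count over 1 size factor for its library, as worked out from the values: 100% were whole multiples of 1 step per library within 0.006. The sources used here do not say whether strand or molecular identifiers were used, so floors of 3 reads cover counting error only. The table's gene ends lay 300 bases past the 3' end of GENCODE M21 for 19418 of 53229 matched genes, the 9 genes among them, so reads from a downstream neighbour can be included.

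All 10 libraries were fitted with limma 3.58.1 (R 4.3.3; lmFit, eBayes with trend) on log2(value + 1), which understates changes of low genes, for 14712 genes (mean of 5 or more). P-values were two-sided and Benjamini-Hochberg adjusted over all tested genes, and errors of differences are SEs. The fit was repeated after subtraction of Pecam1 and Cdh5, or of Ptprc. Single genes had an exact permutation test over libraries. Letters in library names are nested in treatment and no batch term was fitted. Alternatives were other pseudocounts, filters, scalings and references, leaving out libraries, and edgeR 4.0.16 and DESeq2 1.42.0 on the recovered reads.

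Named were the 9 genes, up to 4 tested genes of each list with the smallest p and the 5 genes most alike to each of 3 members; any other listed gene was named after its values were seen. Some genes that these rules or lists include are not reported here. The 9 genes, the lists and the motifs were chosen with earlier results of these data known. No list was tested as a set. On simulated data (14506 genes, 200 changed) the first fit recovered 38.0% of genes changed 2-fold and 84.0% of those changed 4-fold, with 9 false calls among 118. For the fit relative to Pecam1 and Cdh5 (14504 genes) these were 30.0% and 88.0%, with 53 false calls among 166. The error of the reference is shared by all genes on that scale, and its part in the false calls was not tested. Adjusted p-values on that scale are read together with the exact test. That test uses the same reference and is not adjusted over genes, so it does not remove a shared error.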

Additional observations from a re-analysis of the deposited data

How the results depend on the processing

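Vcam1, Selplg, Plvap and Itga4 kept their direction and call in all 23 alternatives on the deposited scale, and Vcam1, Selplg and Itga4 in all 16 relative to Pecam1 and Cdh5. Plvap on the relative scale ranged from 1.16 to 1.38 with 1 library left out. Selp ranged from 1.30 to 2.74 and on the relative scale from 1.09 to 2.24 with 1 library left out; it also passed without the 3 shallowest libraries (2.33, and 1.91 relative), without A3, A5 and D2 (2.46, chosen after seeing the data), in edgeR (2.38) and in DESeq2 (2.39). Signs turned only for values that were not called: Icam1 relative to the pair (-0.14 to 0.30 with 1 library left out, -0.0053 against Pecam1 alone, -0.032 against the endothelial list), Cdh5 (-0.0042 to 0.44 with 1 library left out), Selplg relative to Ptprc (-0.43 to 0.028 with 1 library left out, 0.21 without the 3 shallowest, 0.35 against the leukocyte list), Itga4 relative to Ptprc (0.040 without the 3 shallowest and 0.20 against the leukocyte list), Prox1 (-0.22 without A3, A5 and D2) and Reln (0.017 in edgeR, 0.0023 in DESeq2, -0.38 to 0.28 with 1 library left out, 0.21 without the 3 shallowest). The causes were not tested.

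Relative to Pecam1 and Cdh5, 1054 genes were lower, against 623 to 2867 with 1 library left out (663 without A3, 625 without A5, 623 without D4, 2867 without D2), 1887 without the 3 shallowest and 1954 against the endothelial list. Relative to Ptprc, 72 were higher, against 44 at a pseudocount of 5, 123 without the 3 shallowest and 186 against the leukocyte list. Scaling to library totals moved the median of all genes to 0.11 and the calls from 2309 higher and 2085 lower to 2915 and 1545. Of 1401 values of 61 listed genes under these alternatives, 1326 kept direction and call. No paired analysis was possible because the library names are unique and pair no samples. Depth limits Sele, Epx and Madcam1, which lay under the level of 3 reads.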
